A study of Mus musculus with 14 samples.

Results

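The 10 genes described here are 8 matrix metalloproteinases (Mmp2, Mmp3, Mmp9, Mmp10, Mmp11, Mmp12, Mmp13 and Mmp14) and 2 of their tissue inhibitors (Timp1 and Timp3). They were taken by name from the 53801 genes of the count files, and all 10 were among the 16287 genes that passed a filter on low counts and were tested. The RNA came from 14 whole tumors grown from CT26 cells, a mouse colon carcinoma line that carried a library of DNA barcodes. Cells (250000 per site) were injected under the skin of the left and right flank of female Balb/c mice aged 6 to 8 weeks. From day 7 the mice received 5 intraperitoneal doses of 200 μg, one every 3 days, and tumors were collected 3 days after the last dose. The control IgG group held 5 tumors from 4 mice given a control antibody (clone 2A3). All other mice received an antibody to PD-1 (clone 1A12), an inhibitory receptor of T cells. Their tumors were split by final size relative to the control median into 5 responder tumors from 4 mice and 4 non-responder tumors from 3 mice, so the anti-PD-1 groups were themselves defined by tumor size. Tumors are named here by mouse number and flank, and 3 mice gave both of their tumors (14L and 14R, 30L and 30R, 33L and 33R).

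Matrix metalloproteinases (MMPs) are zinc-dependent endopeptidases that cut collagens, proteoglycans, growth factors and chemokines outside the cell. Most are secreted as inactive precursors, are switched on by removal of a propeptide, and are held in check by the tissue inhibitors of metalloproteinases (TIMPs). In tumors they are made by fibroblasts, macrophages, neutrophils and endothelium as well as by the cancer cells. Transcription of several of them is induced by the AP-1 family of transcription factors.

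Of the members, 4 lie in a cluster of MMP genes on mouse chromosome 9, in the order Mmp13, Mmp12, Mmp3 and Mmp10, with Mmp1b and Mmp1a also among them, within 237727 bases of the mm10 build. Their promoters are shown beside those of Mmp11 and Timp3, the members that passed the tests described further on. Each line gives the 100 bases before a RefSeq transcription start (build GRCm38.p6), written 5′ to 3′ on the gene's own strand, and capitals mark matches to the AP-1 motif TGANTCA. For Mmp12, the second of 2 RefSeq starts is shown, and the first had no match. The Mmp11 and Mmp12 windows lie within the spans that GENCODE gives these genes, and the Timp3 window reaches into that of Timp3.
Mmp13 (chr9:7272414-7272513, plus strand): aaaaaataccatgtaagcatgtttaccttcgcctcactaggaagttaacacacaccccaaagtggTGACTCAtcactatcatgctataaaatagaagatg
Mmp12 (chr9:7347274-7347373, plus strand): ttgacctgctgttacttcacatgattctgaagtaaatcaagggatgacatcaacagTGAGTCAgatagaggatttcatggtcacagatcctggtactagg
Mmp3 (chr9:7445722-7445821, plus strand): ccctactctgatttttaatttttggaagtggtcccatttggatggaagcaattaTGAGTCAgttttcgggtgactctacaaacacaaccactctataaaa
Mmp10 (chr9:7502242-7502341, plus strand): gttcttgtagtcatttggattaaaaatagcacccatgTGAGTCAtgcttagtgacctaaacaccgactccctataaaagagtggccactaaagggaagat
Mmp11 (chr10:75932503-75932602, minus strand): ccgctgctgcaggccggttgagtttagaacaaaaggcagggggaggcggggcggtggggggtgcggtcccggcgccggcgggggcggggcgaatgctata
Timp3 (chr10:86300312-86300411, plus strand): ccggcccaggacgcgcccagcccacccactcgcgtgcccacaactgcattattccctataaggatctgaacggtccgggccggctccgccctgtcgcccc

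The motif TGANTCA was searched on both strands over 300 bases, from 250 before to 50 after each start. RefSeq held such entries for 8 of the 10 members, the others being Mmp2 and Mmp9. Counting a gene with a match at any start, 4 of the 8 had one, which were all 4 members of the chromosome 9 cluster, against 8.97% of 27025 genes (7.81% of all 32851 promoters). The letters TATAAA were found for the same 4 members, at the second Mmp12 start only, and for 15.7% of genes (13.6% of promoters). The Mmp13 match to TGANTCA began 35 bases before the start, the Mmp12 match 44, the Mmp3 match 46 and the Mmp10 match 63. The letters TATAAA began 16 bases before the start for Mmp13, 7 for Mmp3 and 29 for Mmp10, and 4 bases after it for Mmp12. All these distances are counted from annotated starts, whose place in these tumors was not tested. The GC content of the promoters of these 4 genes was 37.7% to 43.7%, against 55.0% to 67.0% for Mmp11, Mmp14, Timp1 and Timp3. A match describes these letters in this window only, and none of these promoters was assayed for binding.

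Libraries were of similar depth, with total expected counts of 33237744 to 48481461 per tumor. Levels are given as CPM, counts scaled to library size with TMM factors, which compare 1 gene between tumors. Comparisons between genes use TPM, which divide counts by transcript length before scaling. In bulk tumor RNA, fewer cells of a type and less RNA per cell cannot be told apart. Of 10 markers of colon epithelium, Krt20 was abundant at 328 ± 85.4 CPM (SD, n = 14), Epcam was low at 2.93 ± 1.38 CPM (SD, n = 14), Vil1 reached at most 0.174 CPM and Cdx1 was at 0 in every tumor. Of the 8 that were tested, Cdx2 alone passed, at 0.148 ± 0.185 CPM (SD, n = 5) in responder and 0.570 ± 0.0970 CPM (SD, n = 5) in control IgG tumors (log2 fold change -1.97, SE 0.55, adjusted p = 0.0303, edgeR), and in 7 of 14 fits that left out 1 tumor. The median log2 fold change of the 8 was -0.44 there, with 2 above 0, and 0.04 against non-responder tumors. The summed CPM of 8 epidermal markers ran from 7.15 to 993 and that of 8 skeletal muscle markers from 24.0 to 1230, so tumors carried unequal amounts of skin and muscle RNA. None of these 16 markers passed a test between groups, and the part of such tissue in the member values was not tested.

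Per length, the inhibitor Timp1 was the most abundant member in all 14 tumors, with a median of 681 TPM and a range of 561 to 926. Its level was 2.11 to 6.13 times the summed TPM of the 8 MMPs in the same tumor. Among the MMPs, the membrane-type enzyme Mmp14 led with a median of 58.4 TPM, above the macrophage elastase Mmp12 at 50.8 TPM in 12 of 14 tumors. Mmp12 exceeded Mmp2, at a median of 17.7 TPM, in 13 of 14 tumors. Mmp2 and Mmp3 (median 17.6 TPM) could not be put in order, each being the higher in 7 tumors. Mmp3 exceeded Mmp13 (median 10.8 TPM) in 13 of 14 tumors. Below these, Mmp13 and Mmp9 (median 10.5 TPM) were again each the higher in 7 tumors. Timp3 followed at a median of 10.4 TPM, below Mmp9 in 9 of 14 tumors, and Mmp11 at 7.12 TPM, below Timp3 in 9 of 14. Mmp10 was the lowest member in all 14 tumors, at a median of 0.430 TPM and 10 to 49 expected counts per tumor.

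Timp3 was higher and Mmp11 lower in responder than in control IgG tumors, while the other 8 members did not pass the test. Mmp11 was also lower in responder than in non-responder tumors, the only member to pass there. Between non-responder and control IgG tumors no member passed. Tests were edgeR's quasi-likelihood test on the 14 tumors, with p-values adjusted by the Benjamini-Hochberg method over all 16287 genes. Against control IgG, 1 of 10 members was higher where 7.88% of all genes were, and 1 of 10 was lower where 5.30% were. Against non-responder tumors, 0 of 10 were higher (5.08% of all genes) and 1 of 10 was lower (4.82% of all genes). These shares are near the background, and the members as a set did not stand apart from other genes. Between non-responder and control IgG tumors 0% of genes passed by edgeR, with 758 genes at an unadjusted p under 0.05 and none of the members among them. DESeq2 called 16 genes there and limma-voom 0, again with no member. The CPM ranges of responder and control IgG tumors did not overlap for 3 of 10 members (Mmp10, Mmp11 and Timp3), against 15.1% of all genes. Those of responder and non-responder tumors did not overlap for 1 member (Mmp11), against 12.8%.

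**Figure D1:**
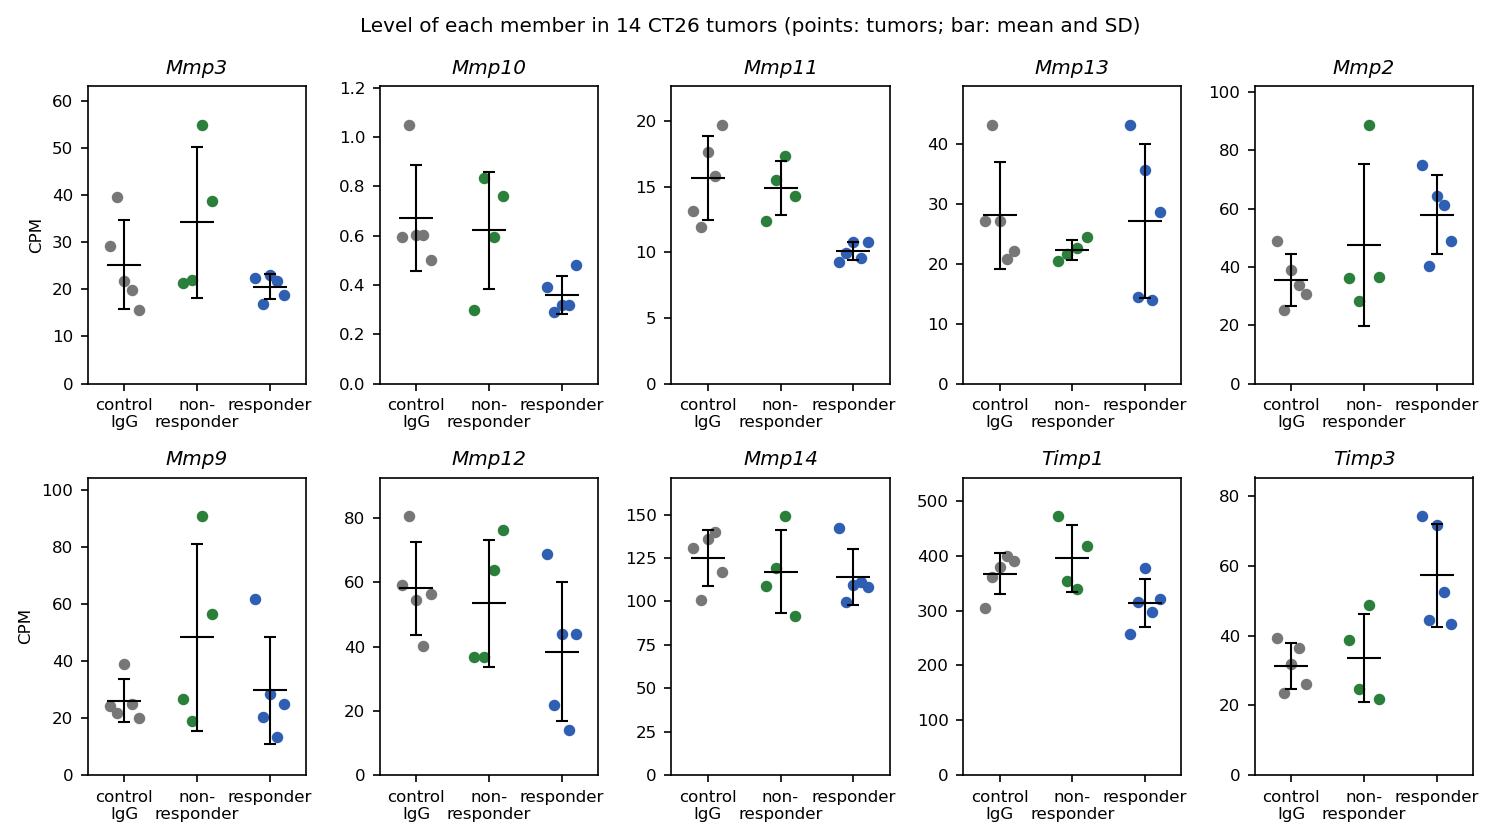
CPM of each member (vertical axes, starting at 0) in control IgG, non-responder and responder tumors; points are tumors and bars give the mean and SD. Responder tumors sit below both other groups for Mmp11 (9.27 to 10.8 CPM), and above control IgG tumors for Timp3 (43.2 to 74.2 CPM).

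**Figure D2:**
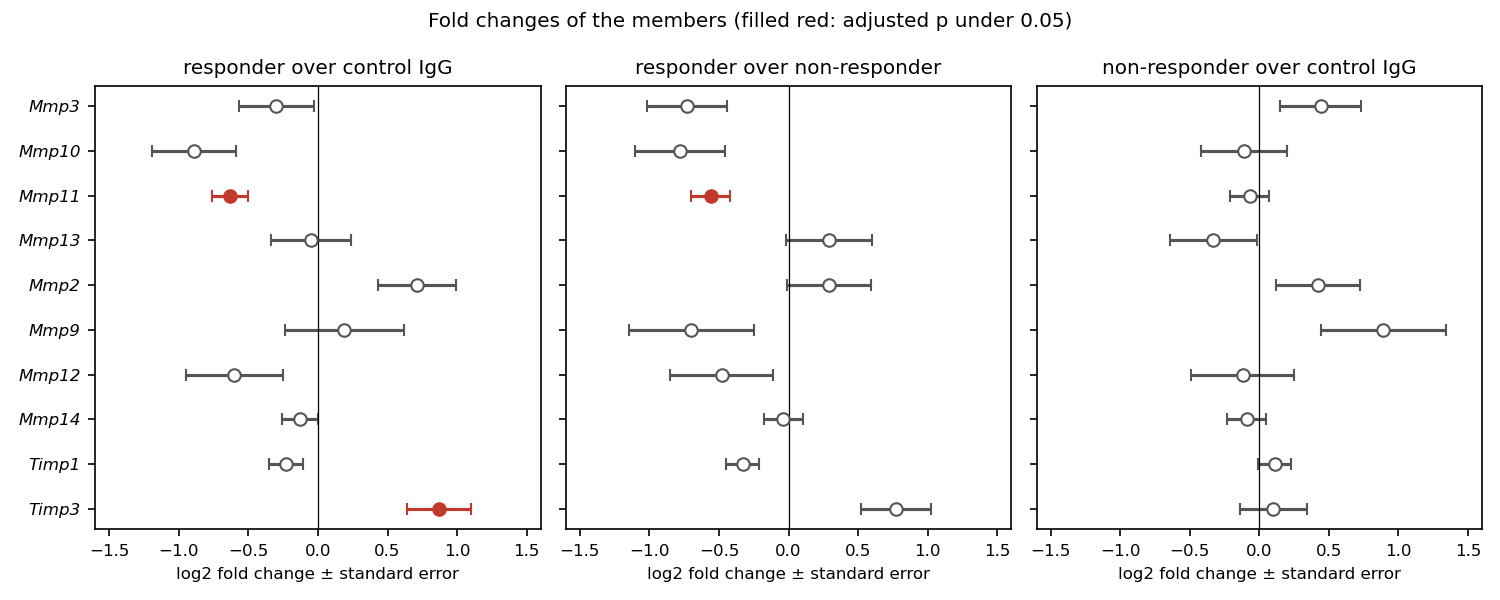
log2 fold change with its standard error (horizontal axes) for the 10 members in the 3 comparisons; filled red points had an adjusted p under 0.05. Timp3 (0.87) and Mmp11 (-0.63) passed for responder over control IgG, Mmp11 (-0.56) for responder over non-responder, and no member for non-responder over control IgG.

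Mmp11, stromelysin-3, is an MMP best known from fibroblasts around carcinoma cells (ENSMUSG00000000901, chr10:75923222-75936496, mm10, minus strand). In control IgG tumors 14L, 14R, 16R, 17R and 20R its level was 13.1, 11.9, 17.6, 15.8 and 19.7 CPM. In non-responder tumors 29L, 32R, 33L and 33R it was 12.4, 15.5, 17.3 and 14.3 CPM. In responder tumors 24L, 26R, 30L, 30R and 35L it was 9.27, 9.97, 10.8, 9.59 and 10.8 CPM. All 5 responder tumors were thus below all 9 others, and they varied among themselves by 1.17-fold, against 1.66-fold in control IgG and 1.40-fold in non-responder tumors. The log2 fold change of responder over control IgG was -0.63 with a standard error of 0.13 and an adjusted p of 0.00735. Over non-responder it was -0.56 with a standard error of 0.14 and an adjusted p of 0.0254. With the tumors of each mouse summed to 1 library, the adjusted p was 0.00647 and 0.0359.

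The Mmp11 result depended on the measure. On log2(TPM + 1) the log2 difference was -0.40 against control IgG (adjusted p = 0.0944, limma) and -0.22 against non-responder tumors (adjusted p = 0.319, limma). On that scale the median of all genes moved to 0.085 for responder over control IgG and to 0.169 for responder over non-responder, and relative to it the Mmp11 differences were -0.49 and -0.39. Responder tumors had 6.21 to 6.99 TPM of Mmp11, overlapping the lower ends of the ranges of control IgG tumors (6.67 to 11.7 TPM) and non-responder tumors (6.27 to 10.5 TPM). Against control IgG the call held in all 14 fits that left out 1 tumor. Against non-responder tumors it was lost without 24L (adjusted p = 0.0686), 30R (0.0618), 32R (0.064) or 33L (0.0594), each by edgeR, and without both tumors of mouse 33 it was 0.164, with a fold change of -0.45. Mean fragment length did not overlap between responder (269.5 to 277.0 bases) and non-responder tumors (277.5 to 287.8 bases), and with a trend over gene length removed the Mmp11 change was -0.57 (adjusted p = 0.0258, edgeR).

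Mmp3 and Mmp10 are the other stromelysins, both in the chromosome 9 cluster, that cut proteoglycans and activate other pro-MMPs. Mmp10 (ENSMUSG00000047562, chr9:7502352-7510240, mm10, plus strand) was at 0.596, 1.05, 0.604, 0.603 and 0.503 CPM in control IgG tumors 14L, 14R, 16R, 17R and 20R. Non-responder tumors 29L, 32R, 33L and 33R had 0.299, 0.834, 0.595 and 0.760 CPM of Mmp10. In responder tumors 24L, 26R, 30L, 30R and 35L it was at 0.393, 0.291, 0.317, 0.318 and 0.480 CPM. The responder tumors were below all control IgG tumors but overlapped non-responder tumors through 29L. The Mmp10 log2 fold changes were -0.89 with a standard error of 0.30 (adjusted p = 0.0645, edgeR) against control IgG and -0.78 with 0.32 (adjusted p = 0.128) against non-responder tumors. The first passed in 3 of 11 alternatives (adjusted p between 0.0379 and 0.122), and TPM ranges overlapped. Without 29L both Mmp10 comparisons passed, with adjusted p of 0.0371 and 0.0407 by edgeR.

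Mmp3 (ENSMUSG00000043613, chr9:7445822-7455975, mm10, plus strand) was at 29.2, 39.7, 21.9, 19.8 and 15.7 CPM in control IgG tumors, in the order given above. Non-responder tumors had 21.3, 22.0, 55.0 and 38.8 CPM, and responder tumors 22.4, 16.8, 23.0, 21.8 and 18.8 CPM. Both tumors of mouse 33 (55.0 and 38.8 CPM) and control tumor 14R (39.7 CPM) were high, and responder tumors lay within the control range. The log2 fold change of Mmp3 was -0.30 (SE 0.27, adjusted p = 0.522, edgeR) against control IgG and -0.73 (SE 0.29, adjusted p = 0.113) against non-responder tumors. Without mouse 33 the latter was -0.06 (adjusted p = 0.939).

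Mmp13, the main interstitial collagenase of the mouse, opens the triple helix of fibrillar collagens (ENSMUSG00000050578, chr9:7272514-7283331, mm10, plus strand). It was at 27.1, 43.1, 27.2, 20.8 and 22.1 CPM in control IgG tumors and at 20.5, 21.6, 22.6 and 24.5 CPM in non-responder tumors. Responder tumors 24L, 26R, 30L, 30R and 35L had 43.2, 14.5, 35.6, 14.0 and 28.6 CPM of Mmp13. The responder group held both the highest and the lowest tumors, and the 4 non-responder tumors were the closest together. The means of 28.0 ± 8.90 (SD, n = 5), 22.3 ± 1.70 (SD, n = 4) and 27.2 ± 12.9 CPM (SD, n = 5) differed by less than the spread between tumors. Mmp13 changed by -0.05 (SE 0.29, adjusted p = 0.94, edgeR) against control IgG and by 0.29 (SE 0.31, adjusted p = 0.576) against non-responder tumors.

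Mmp12, the macrophage metalloelastase, cuts elastin (ENSMUSG00000049723, chr9:7344381-7369499, mm10, plus strand). Its level was 59.1, 80.6, 54.5, 40.1 and 56.3 CPM in control IgG tumors and 36.9, 36.9, 63.9 and 76.3 CPM in non-responder tumors. Responder tumors had 68.8, 21.7, 43.9, 14.1 and 43.9 CPM of Mmp12. Tumors 26R and 30R were below every tumor of the other groups, whereas 24L was above 4 of the 5 control tumors. The log2 fold change of -0.60 (SE 0.35) against control IgG had an adjusted p of 0.295 by edgeR. That against non-responder tumors was -0.48 (SE 0.37, adjusted p = 0.431), and 0.07 without mouse 33. The flanks of mouse 30 differed in 3 proteases at once: 30L exceeded 30R by 3.11-fold in Mmp12, 2.55-fold in Mmp13 and 2.15-fold in Mmp9. In Mmp2 and in Mmp3 it did so by 1.05-fold. These flanks also differed in summed epidermal markers (10.9 CPM in 30L, 993 CPM in 30R) and skeletal muscle markers (24.0 and 422 CPM). The part of such tissue in the flank differences was not tested.

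Gelatinases Mmp2 and Mmp9 cut denatured collagen and basement membrane collagen. Mmp2 (ENSMUSG00000031740, chr8:92827291-92853420, mm10, plus strand) is typically made by fibroblasts. It was at 48.9, 25.1, 39.0, 33.8 and 30.8 CPM in control IgG tumors, and at 36.3, 28.2, 88.7 and 36.6 CPM in non-responder tumors 29L, 32R, 33L and 33R. Responder tumors had 75, 40.3, 64.2, 61.1 and 49.0 CPM of Mmp2, and 4 of the 5 exceeded the highest control tumor. The log2 fold change against control IgG was 0.71 (SE 0.28, adjusted p = 0.114, edgeR). It passed when only those groups were fitted (adjusted p = 0.0251), without 33L (0.026) and without both tumors of mouse 33 (0.0209). Against non-responder tumors Mmp2 differed by 0.29 (SE 0.30, adjusted p = 0.561), and by 0.79 without 33L (adjusted p = 0.0396).

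Mmp9 (ENSMUSG00000017737, chr2:164940780-164955850, mm10, plus strand) is known from neutrophils, macrophages and osteoclasts. It was at 24.3, 21.8, 39.1, 24.9 and 20.0 CPM in control IgG tumors and at 26.6, 19.1, 90.8 and 56.6 CPM in non-responder tumors. In responder tumors it was at 61.7, 20.5, 28.4, 13.2 and 24.8 CPM. The high tumors were 33L, 33R and 24L, which span both anti-PD-1 groups, and the remaining 11 lay between 13.2 and 39.1 CPM. Mmp9 varied more within groups than any other member, with a pooled SD of 0.76 on the log2 CPM scale, and 93.3% of all tested genes varied less. Its log2 fold change was 0.89 (SE 0.45, adjusted p = 0.931, edgeR) for non-responder over control IgG, and -0.20 without mouse 33. For responder over non-responder it was -0.70 (SE 0.45, adjusted p = 0.328), and 0.39 without mouse 33. Against control IgG, responder tumors differed by 0.19 (SE 0.43, adjusted p = 0.815).

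Ctsk and Acp5, genes known from osteoclasts, were high in the same tumors as Mmp9. The summed CPM of 8 osteoclast and cartilage markers was 166 in 33R, 155 in 33L and 114 in 24L, and 44.8 to 80.2 in the other 11 tumors. Most of the sum in 33R, 33L and 24L came from Ctsk and Acp5. Ctsk, the collagen-cutting protease cathepsin K, was at 88.2 CPM in 33L, 96.8 CPM in 33R and 63.3 CPM in 24L, against 17.2 to 34.1 CPM elsewhere. Acp5, tartrate-resistant acid phosphatase, was at 46.9, 53.8 and 36.9 CPM in those tumors and at 11.7 to 23.7 CPM elsewhere. The osteoclast markers Ocstamp and Dcstamp were low, at 0.470 to 2.38 CPM and 0 to 1.27 CPM over all tumors. Of the bone and cartilage markers, Acan, Col2a1 and Ibsp were at most 0.214 CPM in any tumor. Sox9, a cartilage factor also made by epithelial cells, was at 6.97 to 14.4 CPM in responder, 15.9 to 24.9 CPM in control IgG and 12.8 to 17.4 CPM in non-responder tumors. It was the 1 marker of the list to pass, lower in responder than in control IgG tumors by a log2 fold change of -0.86 (SE 0.17, adjusted p = 0.00568, edgeR). The part of osteoclast-type cells in the Mmp9 values was not tested.

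**Figure D3:**
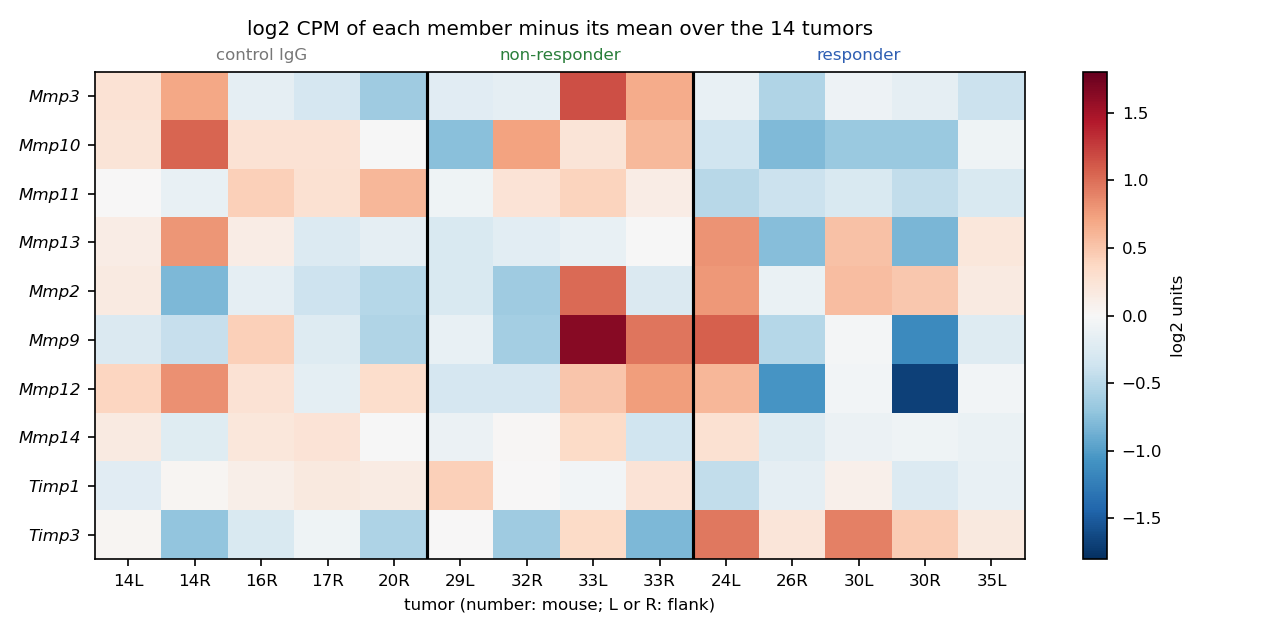
log2 CPM of each member minus its mean over the 14 tumors (color, in log2 units), with members as rows and tumors as columns grouped by treatment and response. Timp3 is above its mean in all 5 responder tumors and Mmp11 below it, while Mmp9 is highest in 33L, 24L and 33R and Mmp12 is lowest in 30R and 26R.

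Mmp14 is a membrane-anchored MMP that cuts collagen and activates pro-Mmp2 (ENSMUSG00000000957, chr14:54431612-54445364, mm10, plus strand). It was at 131, 101, 136, 139.7 and 117 CPM in control IgG tumors and at 109, 119, 149 and 91.7 CPM in non-responder tumors. Responder tumors had 142, 99.8, 109.5, 111 and 108 CPM of Mmp14, within the range of the other groups. Its log2 fold changes were -0.13 (SE 0.13, adjusted p = 0.573, edgeR) against control IgG and -0.04 (SE 0.14, adjusted p = 0.895) against non-responder tumors. Within-group variation was 0.22 log2 units, close to the 0.23 of the median gene.

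Timp3, the inhibitor that binds to the matrix itself and also inhibits ADAM proteases, lies on chromosome 10 (ENSMUSG00000020044, chr10:86300372-86349506, mm10, plus strand). Control IgG tumors 14L, 14R, 16R, 17R and 20R had 39.2, 23.4, 31.7, 36.3 and 26.0 CPM. Non-responder tumors 29L, 32R, 33L and 33R had 38.6, 24.6, 48.9 and 21.9 CPM, and responder tumors 24L, 26R, 30L, 30R and 35L had 74.2, 44.6, 71.7, 52.5 and 43.2 CPM. Every responder tumor was above every control tumor, and 33L alone among non-responder tumors reached into the responder range. The log2 fold change of responder over control IgG was 0.87 with a standard error of 0.23, a 1.83-fold difference with an adjusted p of 0.0232 by edgeR. It passed in all 12 alternatives, with adjusted p up to 0.0364, and in 10 of 14 fits that left out 1 tumor. It was lost without control tumor 14R (adjusted p = 0.051) or 20R (0.0678) or responder tumor 24L (0.0707) or 30L (0.055).

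Against non-responder tumors Timp3 was higher by 0.77 log2 units (SE 0.25) with an adjusted p of 0.0599 by edgeR, which did not pass. It passed in 5 of 12 alternatives, among them DESeq2 (adjusted p = 0.0168) and 1 library per mouse (0.0385), and without 33L (0.0262). The part of fibroblasts in the Timp3 and Mmp2 values was not tested. The summed CPM of 12 fibroblast markers was 3078 to 5165 in responder, 2586 to 3318 in control IgG and 2494 to 4643 in non-responder tumors, where 33L was the highest. Of these 12, Col1a1, Col1a2 and Postn were higher and Dcn was lower in responder than in control IgG tumors, the remaining 8 not passing, and Col1a1 passed in 7 of 14 fits that left out 1 tumor. Against non-responder tumors Col1a2 alone passed, with 11 not passing. Its call there was lost in most fits that left out 1 tumor (adjusted p up to 0.119, edgeR). Of 8 endothelial markers, Emcn (0.40, adjusted p = 0.0102, edgeR) and Tie1 (0.43, adjusted p = 0.0365) were higher in responder than in control IgG tumors. None passed against non-responder tumors. When 1 tumor was left out, Emcn passed in all 14 fits and Tie1 in 6 of 14. Over the 14 tumors, which include 3 pairs from 1 mouse each, log2 CPM of Timp3 and Mmp2 had a Pearson r of 0.85 and a Spearman rho of 0.87.

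Timp1, the soluble inhibitor of most secreted MMPs, is on the X chromosome (ENSMUSG00000001131, chrX:20870166-20874735, mm10, plus strand). It was at 305, 361, 380.0, 399 and 391 CPM in control IgG tumors and at 472, 354, 339 and 417 CPM in non-responder tumors. Responder tumors had 258, 315, 377, 298 and 322 CPM, overlapping both other groups. The log2 fold changes were -0.23 (SE 0.12, adjusted p = 0.22, edgeR) against control IgG and -0.33 (SE 0.12, adjusted p = 0.0931) against non-responder tumors, and neither passed in any alternative. Timp1 varied the least of the members within groups, with an SD of 0.19 log2 units. The TPM ratio of Timp1 to Timp3 was 26.1 to 56.5 in responder tumors, 58.4 to 116 in control IgG tumors and 52.8 to 147 in non-responder tumors. That of Timp3 to Mmp11 was 1.75 to 3.47, 0.565 to 1.30 and 0.670 to 1.37. Timp3 and Mmp11 passed in opposite directions against control IgG, so the gap in their ratio repeats those results. Non-responder tumors overlapped control IgG tumors in both ratios, and reached into the responder range in the first.

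Overlapping annotation touches 4 members, each by a gene on the opposite strand: Chchd10 at Mmp11, Mmp1b at Mmp12, Syn1 around Timp1 and Syn3 around Timp3. Whether counting used strand is not given in the sources used here. The overlapping genes reached at most 6.34, 0.0528, 2.66 and 1.07 CPM.

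Outside the 10, 3 further MMPs rose in responder tumors. Of 15 further MMP genes, 8 were tested. Of these, 3 (Mmp19, Mmp25 and Mmp28) were higher and 0 lower in responder than in control IgG tumors. Of all tested genes, 7.88% were higher and 5.30% lower there. The same 3 were higher than in non-responder tumors, where 5.08% of all genes were. The median log2 fold change of the 8 was 0.70 against control IgG and 0.25 against non-responder tumors, where that of all tested genes was -0.011 and 0.006. Mmp19, a secreted MMP, was at 68.0 to 85.1 CPM in responder tumors, 32.7 to 41.1 CPM in control IgG tumors and 24.6 to 68.1 CPM in non-responder tumors, where 29L was the highest. Its log2 fold change was 1.01 (SE 0.19, adjusted p = 0.00445, edgeR) against control IgG and 0.79 (SE 0.21, adjusted p = 0.03) against non-responder tumors. Mmp25, a membrane-anchored MMP known from neutrophils, was higher by 1.16 (SE 0.29, adjusted p = 0.0187) and 1.57 (SE 0.32, adjusted p = 0.0129). Mmp28, epilysin, was higher by 0.72 (SE 0.19, adjusted p = 0.0228) and 0.71 (SE 0.20, adjusted p = 0.0407). Without mouse 33 the comparisons with non-responder tumors gave adjusted p of 0.156 for Mmp19, 0.103 for Mmp25 and 0.221 for Mmp28. With 1 library per mouse they were 0.0515, 0.0228 and 0.0409. When 1 tumor was left out, the calls against control IgG were lost for Mmp25 (adjusted p = 0.057) and Mmp28 (0.0517) without 24L. Against non-responder tumors those of Mmp25 held in all 14 such fits, whereas Mmp19 was lost without 24L, 26R, 30R, 32R or 33L (adjusted p up to 0.0793) and Mmp28 passed in 4 of the 14 (up to 0.086).

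Genes that activate, bind or induce MMPs moved both ways against control IgG, and those that passed against non-responder tumors were all lower. Of all 50 other genes of the pathway, the further MMPs included, 41 were tested. Against control IgG, 5 were higher and 4 lower (7.88% and 5.30% of all genes). Against non-responder tumors, 3 were higher and 4 lower (5.08% and 4.82% of all genes). The 3 higher there were Mmp19, Mmp25 and Mmp28, which were also among the 5 higher against control IgG. Between non-responder and control IgG tumors 0 passed in either direction (0% of all genes). The inhibitors Timp2, Timp4 and Reck did not pass in any comparison. Plaur, the urokinase receptor that gathers plasminogen activation at the cell surface, was at 80.2 to 119.9 CPM in responder, 161 to 188 CPM in control IgG and 152 to 181 CPM in non-responder tumors. Its log2 fold changes were -0.93 (SE 0.10, adjusted p = 2.8e-04, edgeR) and -0.79 (SE 0.11, adjusted p = 0.00313). Plau, urokinase, was lower against control IgG by a log2 fold change of -0.53 (SE 0.17), close to the threshold at an adjusted p of 0.0498 by edgeR, and passed in 3 of 14 fits that left out 1 tumor (-0.34 without 14R). Ctsg, cathepsin G of neutrophils and mast cells, was lower than in non-responder tumors by a log2 fold change of -2.0 (SE 0.50, adjusted p = 0.026, edgeR). That was -1.14 without 33R (adjusted p = 0.107) and -0.98 without mouse 33 (adjusted p = 0.25), and the call was also lost without 30R or 35L.

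Among partners at the cell surface, Cd44, a hyaluronan receptor that docks Mmp9, was lower in responder tumors by -0.54 (SE 0.08, adjusted p = 9.9e-04, edgeR) against control IgG. Against non-responder tumors it was lower by -0.27 (SE 0.08, adjusted p = 0.0475), and passed in 6 of 12 alternatives and in 2 of 14 fits that left out 1 tumor, and was -0.02 on log2(TPM + 1) (adjusted p = 0.942, limma). Itgb3, an integrin subunit, was higher by 0.62 (SE 0.12, adjusted p = 0.0055) against control IgG. Of 16 inducers and transcription factors, Fosl1, an AP-1 subunit, was at 68.6 to 89.7 CPM in responder, 121 to 149 CPM in control IgG and 105 to 134 CPM in non-responder tumors. The log2 fold changes of Fosl1 were -0.74 (SE 0.10, adjusted p = 8.7e-04) and -0.57 (SE 0.11, adjusted p = 0.00962). The second was lost on log2(TPM + 1) (-0.31, adjusted p = 0.113, limma) and without mouse 33 (adjusted p = 0.0711, edgeR). Jund, another AP-1 subunit, was higher by 0.38 (SE 0.12, adjusted p = 0.0429) against control IgG, and only 5 of 14 fits that left out 1 tumor passed.

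**Figure D4:**
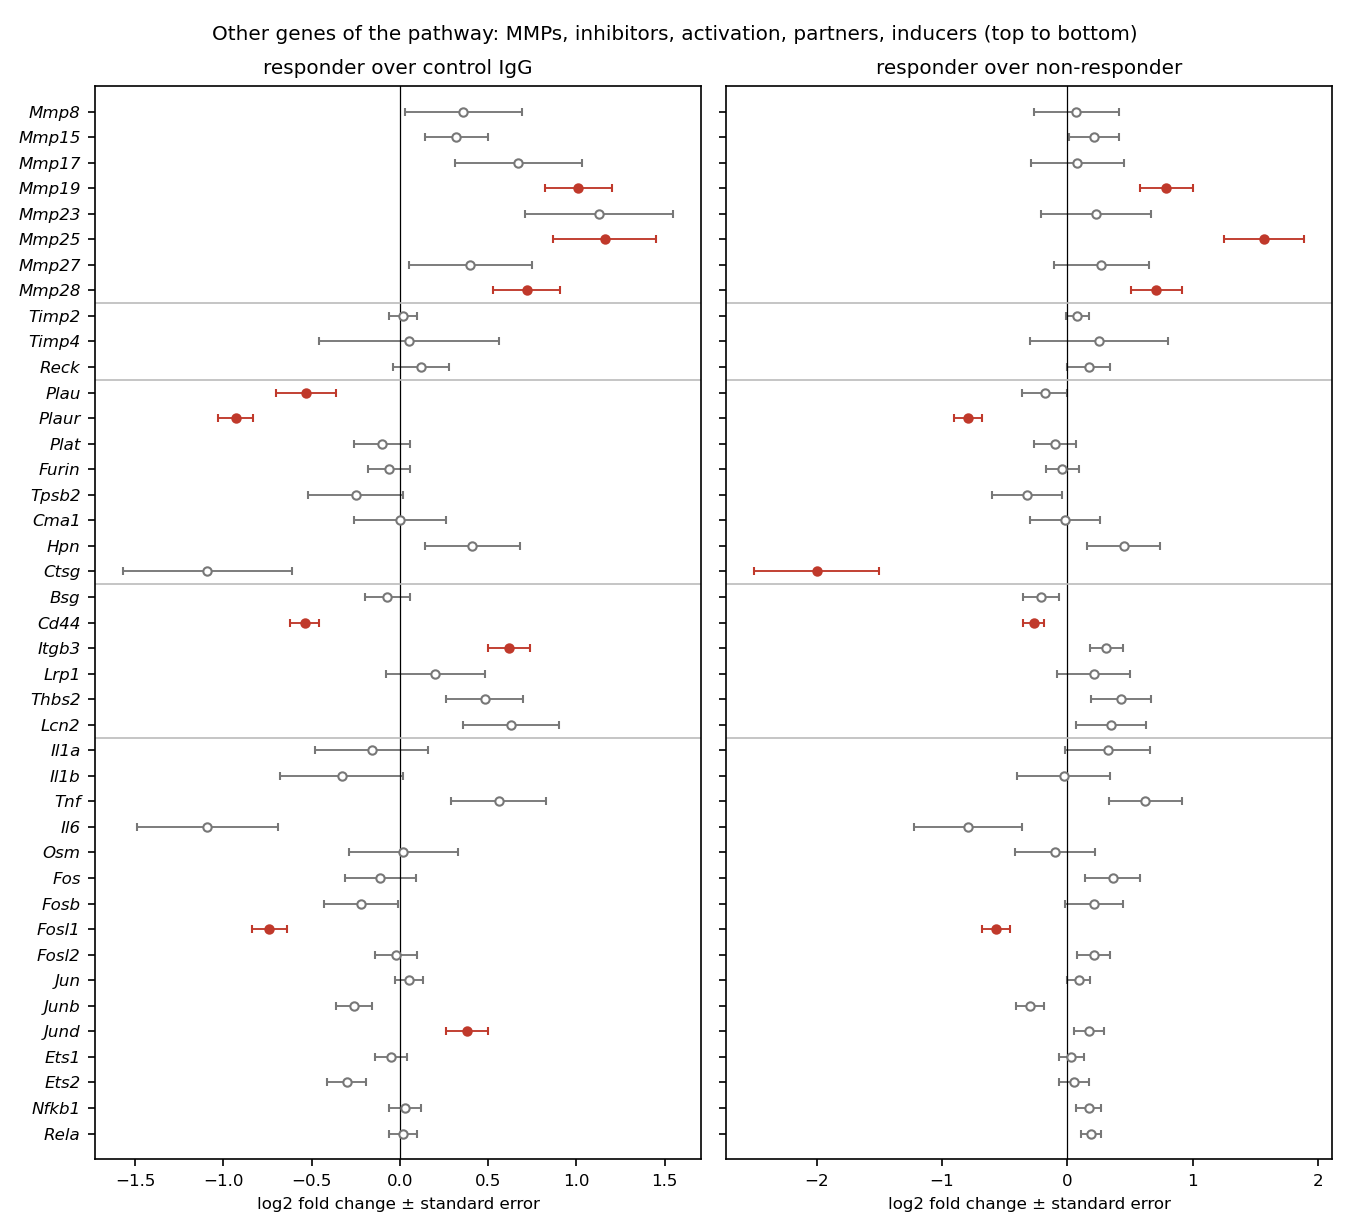
log2 fold change with its standard error (horizontal axes) of the 41 tested pathway genes outside the 10 members, with gray lines between gene lists; filled red points had an adjusted p under 0.05. Mmp19, Mmp25 and Mmp28 lie to the right and Plaur, Cd44 and Fosl1 to the left in both panels.

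T cell markers were higher in responder tumors, whereas most macrophage and neutrophil markers did not pass. All 8 T cell markers (Cd3d, Cd3e, Cd3g, Cd4, Cd8a, Cd8b1, Trac and Lck) were higher in responder than in control IgG tumors and 7 of 8 (not Cd3d) than in non-responder tumors, with summed levels of 55.6 to 103 CPM in responder, 25.8 to 53.9 CPM in control IgG and 31.7 to 39.3 CPM in non-responder tumors. Without mouse 33, Cd4 alone of the 8 passed against non-responder tumors (adjusted p = 0.0492, edgeR). When 1 tumor was left out, Cd3e and Trac passed against control IgG in 8 of 14 fits. Cd3d and Cd8a did so in 11, Cd3g in 12, and Cd4, Cd8b1 and Lck in all 14. Against non-responder tumors the calls of Lck, Trac and Cd3g were lost in some such fits (adjusted p up to 0.0947, edgeR). Of 10 macrophage markers, Adgre1 alone passed, and it was higher in both comparisons, though not against non-responder tumors without mouse 33 (adjusted p = 0.111, edgeR). Against control IgG, Adgre1 passed in 9 of 14 fits that left out 1 tumor (adjusted p up to 0.0755, edgeR). The macrophage sum was 4299 to 5150 CPM in responder, 3442 to 4078 CPM in control IgG and 3634 to 5014 CPM in non-responder tumors. Of the 7 neutrophil markers tested, Csf3r alone passed, again higher in both (without mouse 33, adjusted p = 0.0735 against non-responder tumors, edgeR), and the neutrophil sums overlapped between all groups (22.4 to 69.6 CPM). Ly6g was at most 0.142 CPM. The part of these cells in the member values was not tested.

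Each member was also compared with the 12195 genes at a mean log2 CPM of at least 1, to name those whose level followed it most closely over the 14 tumors. These correlations are the highest of many and describe tumors that share treatment groups and, in 3 cases, a mouse. For Mmp9 the leading genes were Atp6v0d2, a subunit of the osteoclast proton pump (Pearson r 0.94, Spearman rho 0.89), Ctsk (0.93 and 0.83) and Acp5 (0.86 and 0.75). For Mmp2 they were Bicc1 (0.98 and 0.96), Svep1 (0.96 and 0.98) and the collagen gene Col5a2 (0.96 and 0.98), with the matrix protein gene Postn also among the first 5 (0.94 and 0.96). Timp3 followed Il17rd (0.97 and 0.97), the collagen-binding integrin subunit Itga1 (0.97 and 0.98) and Ppp2r5a (0.95 and 0.92). Heg1 (0.95 and 0.96) and the collagen receptor Antxr1 (0.94 and 0.96) came after these. Mmp14 followed Fbln2, a matrix glycoprotein gene (0.88 and 0.91), Fbrsl1 (0.87 and 0.87) and Map1s (0.87 and 0.87). Heca (0.86 and 0.84) and Pdgfrb, a receptor of fibroblasts and pericytes (0.85 and 0.85), came after these.

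Members of the chromosome 9 cluster differed in the genes they followed. Mmp12 followed the chemokine gene Cxcl3 (Pearson r 0.88, Spearman rho 0.82), Fgfrl1 (0.85 and 0.89) and Mterf2 (0.84 and 0.75). Another chemokine gene, Cxcl2, came next (0.83 and 0.82). Mmp13 followed Trip4 (0.85 and 0.80), the cytokine gene Il1b (0.84 and 0.88) and Snapc1 (0.82 and 0.68). The stress-induced factor Atf3 came next (0.80 and 0.78). Mmp12 and Mmp13 themselves had an r of 0.78 and a rho of 0.74. Mmp3 followed Medag (0.85 and 0.65), Dio2 (0.82 and 0.70) and Nek6 (0.81 and 0.62), then the matrix protein gene Dpt (0.79 and 0.82). Low-count Mmp10 followed Foxd2os (0.93 and 0.87). Mmp11 followed Kctd9 (0.95 and 0.93), Glrp1 (0.94 and 0.97), Acsbg1 (0.94 and 0.95) and Rad18, a ubiquitin ligase of DNA repair (0.93 and 0.93). Timp1 followed Dnaja3, a mitochondrial chaperone (0.96 and 0.93). Mmp11 and Timp1 had an r of 0.54 and a rho of 0.61 with each other.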

How the data were processed

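RNA from 14 tumors was sequenced as poly(A)-selected, paired-end libraries. The authors used STAR, with the mm10 build, and RSEM (versions for these tumors are not given in the sources used here). The deposited files give expected counts (not normalized) with TPM and FPKM values per gene and tumor, made by the authors. Deposited FPKM values were not used. Symbols and coordinates came from GENCODE vM21, and promoters from RefSeq (GRCm38.p6).

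Expected counts were rounded, filtered (filterByExpr), scaled by TMM and fitted with edgeR 4.0.16 (glmQLFit, glmQLFTest) in R 4.3.3, with all 14 tumors in 3 groups and Benjamini-Hochberg adjustment over 16287 genes. The threshold was an adjusted p of 0.05, and SE was the fold change divided by the root of F. Alternatives used DESeq2 1.42.0, limma 3.58.1 (voom, and log2(TPM + 1) with a pseudocount of 1), other scalings and filters, a loess trend over gene length (span 0.5), and 1 library per mouse. On simulated data (16287 genes, 200 changed, responder against control IgG) edgeR recovered 83% of 2-fold and 40% of 1.5-fold changes, with 5.38% of calls false. On the same data 14.1% of DESeq2 calls and 4.65% of limma-voom calls were false, so DESeq2 was the least strict in this simulation. The simulated spread of each gene came from edgeR's own estimates, and tumors were drawn as independent, without mouse pairs. Changed genes were drawn above a mean level that Mmp10 did not reach. How the tests rank on the tumor data was not tested. All 10 members were named, in an order set by their roles, and genes of other lists were named where they passed or are defining markers. Likeness was ranked by Pearson r of log2 CPM (prior count 2). The members and gene lists were chosen with earlier results of these data known. Tumors of 1 mouse are not independent, and p-values over tumors judge group differences against the spread between these tumors, not between mice.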

Additional observations from a re-analysis of the deposited data

Results flagged for a closer look

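The highest or lowest tumor of 30 groups (10 members in 3 groups each) was screened on CPM without a log. The measure was Dixon's ratio of its gap to the group's range. In 5 groups a tumor lay beyond the 95% critical value, passed by chance about 1 time in 20 when values are normally distributed. That was not tested for CPM, so the 5 groups are not counted as an excess. Non-responder tumor 33L had 88.7 CPM of Mmp2, and the other 3 had 28.2 to 36.6. Control tumor 16R had 39.1 CPM of Mmp9, against 20.0 to 24.9 in the other 4. Control tumor 14R had 1.05 CPM of Mmp10 (0.503 to 0.604 in the others) and 43.1 CPM of Mmp13 (20.8 to 27.2 in the others). Tumor 14R also had the lowest epidermal sum (7.15 CPM) and the highest skeletal muscle sum (1230 CPM) of all tumors. Responder tumor 24L had 142 CPM of Mmp14, against 99.8 to 111 in the other 4.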

How the results depend on the processing

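Of the 12 alternatives, one was chosen after seeing the data (both tumors of mouse 33 left out). Against control IgG, 2 members passed. The number was 4 when only the groups compared were fitted (Mmp2 and Mmp10 added) and 1 on log2(TPM + 1), and 1 to 3 when 1 tumor was left out. It was 3 with a mouse random effect in limma-voom and with a length trend removed (Mmp10 added in each). Without mouse 33 it was also 3 (Mmp2 added). Against non-responder tumors 1 member passed. The number was 2 with DESeq2, with a mouse random effect in limma-voom, with 1 library per mouse and with a length trend removed (Timp3 added in each), 0 without mouse 33, and 0 to 2 when 1 tumor was left out. On log2(TPM + 1) it was again 1, but Timp3 in place of Mmp11. Between non-responder and control IgG tumors 0 members passed in every fit. Other genes of the pathway were refitted with DESeq2 and with 1 library per mouse: 10 and 9 passed against control IgG (9 in the report) and 7 and 6 against non-responder tumors (7 in the report).

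Fold changes that changed sign were those of members that passed in no fit of that comparison, or of non-responder over control IgG. For responder over control IgG they were Mmp9 with the mouse random effect (-0.0031), Mmp13 with 1 library per mouse (0.04) and on TPM (0.0016), and Mmp14 on TPM (0.01). Leaving out 1 tumor gave -0.26 to 0.38 for Mmp9 and -0.28 to 0.17 for Mmp13. For responder over non-responder, Mmp14 was 0.22 on TPM and, when 1 tumor was left out, -0.13 to 0.11. Without mouse 33, Mmp9 was 0.39, Mmp12 0.07 and Mmp14 0.02 there, and for non-responder over control IgG Mmp2 was -0.15, Mmp3 -0.24, Mmp9 -0.20 and Timp3 -0.00053. In the latter comparison Timp1 was -0.0026 and Timp3 -0.06 on TPM. Leaving out 1 tumor gave -0.08 to 0.60 for Mmp2, -0.29 to 0.12 for Mmp10, -0.16 to 0.03 for Mmp11, -0.36 to 0.02 for Mmp12 and -0.15 to 0.24 for Timp3. The cause of these changes was not tested. The estimated correlation between tumors of 1 mouse was -0.282 over all genes. Mmp10 was not tested at a minimum of 1 CPM in 4 tumors. No paired analysis was possible because replicate numbers follow accession order and each mouse belongs to 1 group.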

Other observations

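Of the 10 Mmp genes annotated in the chromosome 9 cluster, 9 are protein coding and 6 were tested. Besides the 4 members, Mmp8 (1.25 to 3.95 CPM) and Mmp27 (0.579 to 2.24 CPM) were measured at low levels. Mmp1a and Mmp1b reached at most 0.0463 and 0.0528 CPM, and Mmp7 and Mmp20 were at 0 in all 14 tumors. Mmp7, matrilysin, is known as an epithelial MMP of the intestine.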
